A study of Mus musculus with 8 samples.

Results

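The Kirrel genes encode a small family of cell surface adhesion proteins of the immunoglobulin superfamily, and the family is followed here in hippocampal RNA of mice that overexpressed the microRNA miR-708-5p. Its members, Kirrel1, Kirrel2 and Kirrel3, were chosen by gene name: 3 of the 40659 genes in the count table, all 3 among the 17252 genes expressed highly enough to be tested. Kirrel3 stood out to the study in this same comparison, being labelled on its volcano plot and listed among its candidate targets. Its difference between the groups was therefore selected on these libraries and is given below as a description with no test. Kirrel1 and Kirrel2 came in through their names and were tested.

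Kirrel proteins span the cell membrane and carry immunoglobulin domains outside the cell, through which they bind the same or related proteins on a neighbouring cell. With nephrin (Nphs1) they form the junction between podocytes of the kidney filter, the setting in which Kirrel1 is best known. Kirrel2 and Kirrel3 are known from the olfactory system, where they sort axons of sensory neurons into glomeruli. In the hippocampus, Kirrel3 is known from dentate granule cells and GABAergic interneurons, where it takes part in the contacts that mossy fibres, the axons of granule cells, make onto interneurons of area CA3, and variants of the human gene have been linked to autism and intellectual disability.

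PolyA RNA was sequenced from whole hippocampi of 8 male C57BL/6JRj mice. At postnatal week 7 or 8, 4 weeks before dissection, each mouse received a recombinant adeno-associated virus (rAAV) by injection on both sides into dorsal and ventral hippocampus, and the labels give postnatal week 12 or 13 for the tissue, a week more than that interval gives. The 4 hp708 mice received a virus whose hairpin yields miR-708-5p, and the 4 hpCTL mice one with a control hairpin. In both viruses the human synapsin promoter drives the hairpin, which directs it to neurons, whereas the libraries hold RNA of all hippocampal cells, and of infected and uninfected cells alike. Fewer cells of a type and less RNA per cell cannot be told apart in such bulk samples.

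Libraries held 22606824 to 28462428 counts assigned to genes. The precursor gene Mir708 had 0 counts in every library, so the overexpression itself could not be checked in these polyA data. Markers of dentate granule cells, CA3, CA1, interneurons and glia were detected in all 8 libraries. Choroid plexus markers, summed, ranged from 52.4 to 4391 CPM (counts scaled to the size of each library) across libraries of both groups. The animal of the library labelled hp708 replicate 1 (animal number 1602) is listed with the hpCTL animals in the study's own quantitative PCR source data. Across genes, its log2 CPM correlated with the hpCTL libraries at r = 0.979 to 0.988, the highest with hpCTL replicate 2, and with the other hp708 libraries at r = 0.974 to 0.984, ranges that overlap and from which no group was assigned. The library was kept in its labelled group, and the fold changes of the members, of their neighbours and of the named list genes, the list counts, marker tests, correlations across libraries and closest genes are given with and without it.

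Whether a transcript could pair with the overexpressed microRNA is read from its sequence, so the microRNA and the sites in the family are shown first. The mature mouse miR-708-5p and the other microRNA with its seed in the RefSeq table (build GRCm38.p6), miR-28a-5p, are printed 5′ to 3′ with the seed, bases 2 to 8, in capitals.
miR-708-5p: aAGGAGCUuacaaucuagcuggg
miR-28a-5p: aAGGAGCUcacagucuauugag

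Seed matches of 3 kinds were searched on the transcript strand of annotated 3′UTRs: AGCTCCTA, an 8mer, AGCTCCT, a 7mer-m8, and GCTCCTA, a 7mer-A1, where a match to the 8mer was not counted again under either shorter motif. Kirrel3 and Kirrel1 each held 1 match, a 7mer-m8. They are printed below in the sense of the transcript, with the match in capitals inside the 23 bases that face the microRNA.
Kirrel3: gccgtccactttcctAGCTCCTc
Kirrel1: tctgtcaggagccatAGCTCCTg
The Kirrel3 stretch lies at chr9:34946889-34946911 (GRCm39, + strand), and its match begins 328 bases after the stop codon of a 4448-base 3′UTR. The Kirrel1 stretch lies at chr3:86987130-86987152 (GRCm39, - strand), and its match begins at base 3314 of a 4551-base 3′UTR. Aligned without gaps, 13 of the 23 microRNA positions form Watson-Crick pairs with the Kirrel3 stretch and 11 with the Kirrel1 stretch.

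Not every Kirrel3 transcript carried the match. It was present in 13 of 19 coding transcripts with an annotated 3′UTR and lacking in 6, whose 3′UTRs reached at most 926 bases. In Kirrel1, 8 of 10 such transcripts carried it, and the 2 without it had 3′UTRs of at most 170 bases. Kirrel2 had no match in any of its 6 transcripts, whose 3′UTRs reached at most 586 bases. Taking the longest annotated 3′UTR of each gene, 26.5% of the 14808 tested genes with a 3′UTR held at least 1 match. Among genes whose 3′UTR was within 10% of the member's in length, the share was 47.1% for the length of Kirrel3 (978 genes), 47.5% for Kirrel1 (944 genes) and 10.8% for Kirrel2 (492 genes). A match in a 3′UTR as long as those of Kirrel1 and Kirrel3 was thus common. The median log2 fold change between groups was -0.0013 over 2980 genes with 1 match and -0.015 over 10881 genes with none. These sets were classed by the longest annotated 3′UTR and not matched for its length, and the effect of a match was not tested.

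Kirrel3 (ENSMUSG00000032036) is the longest of the genes, at chromosome 9, 34397190 to 34951024 on the + strand (GRCm39), with 10527 bases of exon over all transcripts. In the hpCTL libraries it measured 56.3, 48.5, 53.6 and 45.7 CPM in replicates 1 to 4. The hp708 libraries measured 55.0, 35.7, 49.9 and 28.7 CPM. Replicates 1 and 3 of hp708 lay inside the hpCTL range, replicates 2 and 4 below it, and the groups overlapped. Mean levels were 51.0 ± 4.78 CPM in hpCTL and 42.3 ± 12.2 CPM in hp708 (SD, n = 4 each), a difference in mean CPM of -17.0%. The fitted log2 fold change, with 3 surrogate variables (unlabelled factors estimated from the data) in the model, was -0.16 with a standard error of 0.13, and the plain difference of mean log2 CPM was -0.31.

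The hp708 libraries were the more widely spread. The coefficient of variation of Kirrel3 was 28.7% in hp708 and 9.36% in hpCTL, at a mean of 1177 counts per library. Of 3238 genes at a like level, 4.45% had a larger within-group SD than the 0.32 (log2 CPM) of Kirrel3. Without the library labelled hp708 replicate 1, the other 3 hp708 libraries averaged 38.1 ± 10.8 CPM, from 28.7 to 49.9. The fitted log2 fold change was then -0.51 (SE 0.11), or -0.42 (SE 0.17) with no surrogate variables either. Left out in place of hp708 replicate 1, hp708 replicate 4 took the value fitted with surrogate variables to -0.0063. With hpCTL replicate 3 left out instead it was -0.017. The sign was negative under all 15 alternatives to the fit. The size changed with the libraries that entered and with the surrogate variables, which were estimated anew in each fit. With every library kept and no surrogate variables it was -0.27.

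Kirrel3 was lowest in hp708 replicates 2 and 4, and the cell type markers of those libraries are given beside it. Summed oligodendrocyte markers (7 genes) were 8564 and 6177 CPM there, against 5019 and 4711 CPM in hp708 replicates 1 and 3 and 4536 to 6089 CPM in hpCTL. Summed microglia markers (6 genes) were 804 and 871 CPM there, against 523 and 583 CPM in hp708 replicates 1 and 3 and 628 to 841 CPM in hpCTL. Thalamus and habenula markers were at 114 and 80.4 against 71.6 and 77.3 CPM, and astrocyte markers at 4155 and 5020 against 4516 and 4453 CPM, in the same order. These libraries were picked out by their Kirrel3 level, so the values are a description only. Of the cells in which Kirrel3 is best known, dentate granule markers (10 genes) stood at 518 and 516 CPM there, against 449 and 719 CPM in hp708 replicates 1 and 3 and 454 to 561 CPM in hpCTL. Interneuron markers (10 genes) stood at 754 and 788 CPM, against 800 and 774 CPM and 741 to 886 CPM. The remaining lists are given as summed CPM, hp708 replicates 2 and 4 against 1 and 3. Mossy cell markers were 219 and 225 against 208 and 203, CA3 markers 301 and 347 against 280 and 335. CA1 markers were 627 and 672 against 690 and 634, subiculum markers 167 and 188 against 257 and 176. Endothelium markers were 227 and 222 against 214 and 213, mural and fibroblast markers 330 and 278 against 397 and 253. Choroid plexus markers were 4391 and 173 against 2987 and 105. No marker of the 13 lists was at 0 in any library, and their part in the Kirrel3 values was not tested. Over the 4 libraries of each group, the 13 marker lists were tested on the mean log2 CPM of their genes, not on these sums. None passed (exact permutation test, two-sided, lowest p = 0.114, adjusted p = 0.743), where 4 libraries against 4 cannot go below 0.0286. That lowest p was shared by CA3 (difference of mean log2 CPM 0.18) and subiculum markers (-0.47). Without hp708 replicate 1 the lowest p was 0.0571, for subiculum markers (difference of mean log2 CPM -0.67, adjusted p = 0.660), which is the smallest an exact permutation test of 3 against 4 allows.

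Kirrel1 (ENSMUSG00000041734; chromosome 3, 86985900 to 87086810, - strand) showed no difference beyond the spread of its libraries. Its hpCTL libraries measured 4.32, 7.35, 7.34 and 8.52 CPM. The hp708 libraries measured 9.06, 7.70, 5.63 and 7.39 CPM. The highest level was in hp708 replicate 1 and the lowest in hpCTL replicate 1, and the groups overlapped. Means were 6.88 ± 1.80 CPM in hpCTL and 7.44 ± 1.41 CPM in hp708 (SD, n = 4 each). The log2 fold change was 0.079 (SE 0.12, 95% interval -0.20 to 0.36, edgeR quasi-likelihood test, adjusted p = 0.915), and an exact permutation test of log2 CPM gave p = 0.571. Without the library labelled hp708 replicate 1 the value was -0.059 (SE 0.13). The interval leaves room for changes of either sign.

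The coefficient of variation of Kirrel1 was 26.1% in hpCTL and 19.0% in hp708, at a mean of 179 counts, and 23.4% of 2006 genes at a like level had a larger within-group SD than its 0.36 (log2 CPM). Its lowest libraries, hpCTL replicate 1 and hp708 replicate 3, were also the lowest for choroid plexus markers, at 52.4 and 105 CPM summed over 6 genes. The order did not carry over to the other libraries: hpCTL replicates 2 and 3 had like Kirrel1 levels at choroid sums of 1631 and 149 CPM, and the highest sum, 4391 CPM in hp708 replicate 2, went with a Kirrel1 level of 7.70 CPM. Mural and fibroblast markers, summed over 9 genes, were highest in hp708 replicate 1 (397 CPM) and lowest in hp708 replicate 3 (253 CPM), the libraries with the highest and the lowest Kirrel1 of that group. In hpCTL replicate 1 the mural sum, 317 CPM, was not the lowest of its group. The part of these cells in the Kirrel1 values was not tested.

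Kirrel2 (ENSMUSG00000036915; chromosome 7, 30146958 to 30157131, - strand) showed no such difference either. Its hpCTL libraries measured 7.85, 8.70, 5.17 and 7.44 CPM. The hp708 libraries measured 8.37, 5.22, 10.4 and 5.87 CPM. The highest level was in hp708 replicate 3 and the lowest in hpCTL replicate 3, with hp708 replicates 2 and 4 close above it, and the groups overlapped. Means were 7.29 ± 1.51 CPM in hpCTL and 7.46 ± 2.38 CPM in hp708 (SD, n = 4 each). The log2 fold change was 0.16 (SE 0.21, 95% interval -0.33 to 0.64, edgeR quasi-likelihood test, adjusted p = 0.896), with p = 0.971 in the exact permutation test. The plain difference of mean log2 CPM was 0.0055, and the fit without surrogate variables gave 0.035. Without hp708 replicate 1 it was -0.20 (SE 0.22), and it was also below 0 without hpCTL replicate 3 (-0.021) or without hp708 replicate 3 (-0.064). The direction of so small a difference was not fixed by these libraries.

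**Figure D1:**
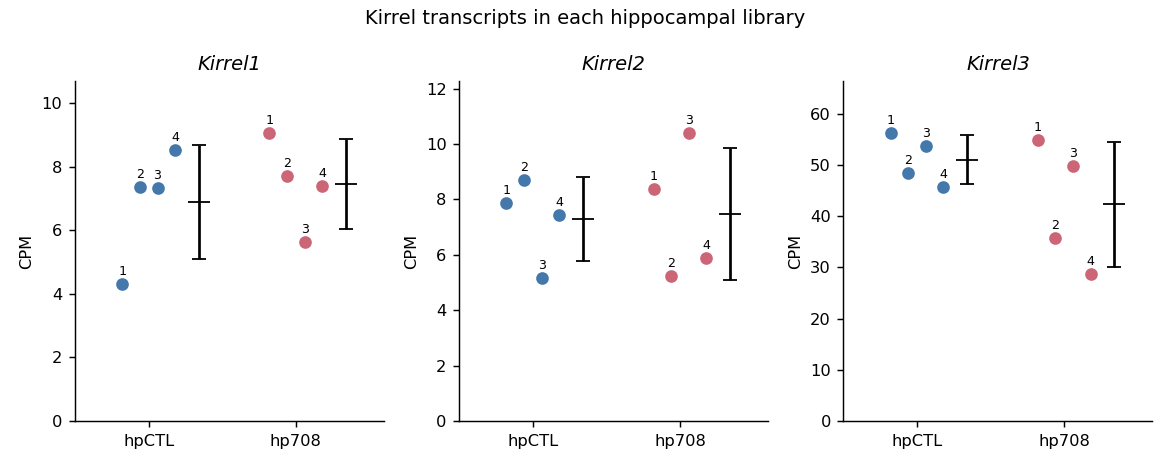
Level of each Kirrel gene in CPM (y axis from 0) in the hpCTL and hp708 libraries; points are libraries with their replicate numbers, and the black mark and bar beside each group are the mean and SD (n = 4). The groups overlap for all 3 genes, and hp708 replicates 2 and 4 lie lowest for Kirrel3.

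Of the 2 members tested, 0 passed an adjusted p below 0.05, where 0.0058% of all tested genes did, a single gene (the immunoglobulin segment Igkj1, named after its values were seen, and not among the 56 genes called without hp708 replicate 1). At an unadjusted p below 0.05 the count was also 0 of 2, against 7.7% of all tested genes. Groups without overlap in CPM were found for 0 of these 2 members, Kirrel1 and Kirrel2, and for 1.51% of all tested genes.

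**Figure D2:**
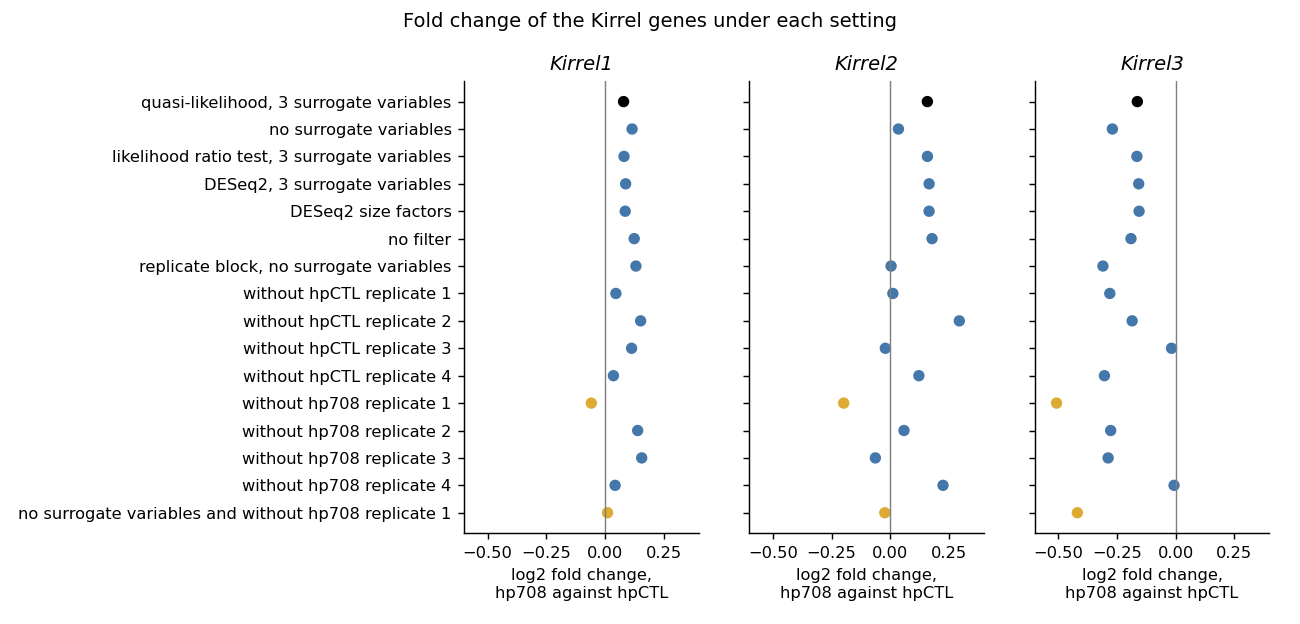
Log2 fold change (x axis, hp708 against hpCTL) of each Kirrel gene under the 16 settings named on the left; the black point is the value reported first, gold points leave out hp708 replicate 1, and blue points are the other alternatives. Kirrel3 lies between -0.51 and -0.0063 throughout, Kirrel1 changes sign under 1 setting and Kirrel2 under 4.

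Levels were then compared between the members per length, as CPM per kilobase of exon. Kirrel3 was the most abundant, at 4.85 ± 0.45 in hpCTL and 4.02 ± 1.16 in hp708 (CPM per kilobase, SD, n = 4 each). Kirrel2 followed at 1.81 ± 0.37 and 1.85 ± 0.59, and Kirrel1 was lowest at 0.855 ± 0.22 and 0.925 ± 0.18. This order held in each of the 8 libraries. Each gene was divided by 1 fixed exon length over all its transcripts, 4038 bases for Kirrel2 and 8047 for Kirrel1. Before that division Kirrel1 was above Kirrel2 in some libraries, such as hpCTL replicate 3 (7.34 against 5.17 CPM). Within a library, Kirrel3 was 1.84 to 3.98 times Kirrel2, and Kirrel2 was 1.35 to 3.68 times Kirrel1. The ranges of neighbours in the order did not overlap over the 8 libraries, although on the CPM scale, which favours long transcripts, Kirrel1 and Kirrel2 were much alike.

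**Figure D3:**
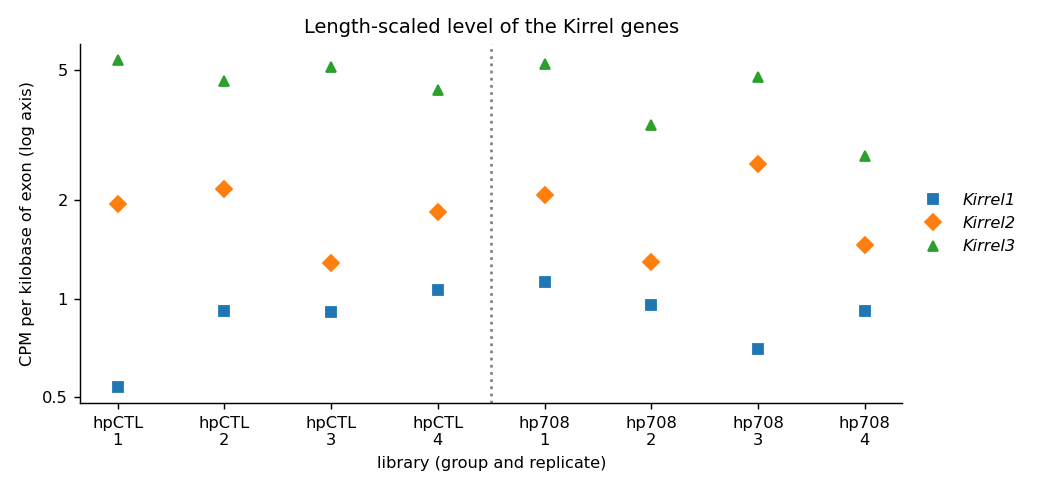
CPM per kilobase of exon (log axis) of the Kirrel genes in each library, hpCTL left and hp708 right of the dotted line; each point is 1 library. Kirrel3 lies above Kirrel2 and Kirrel2 above Kirrel1 in every library.

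The family was of low to middling abundance in this tissue. On the per-kilobase scale, 56.8% of 17162 tested genes lay at or below Kirrel3, 35.3% at or below Kirrel2 and 23.2% at or below Kirrel1. Kirrel3 made up 53.5% to 69.9% of the summed level of the family, Kirrel2 17.6% to 32.1% and Kirrel1 6.86% to 18.0%. The sum itself was lowest in hp708 replicates 4 and 2, at 5.10 and 5.64 CPM per kilobase, and highest in hp708 replicate 1, at 8.42. In hp708 replicate 4 the Kirrel3 share was at its lowest and the Kirrel1 share at its highest.

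The genes around the members were read for overlaps that could enter their counts, since a strand setting for the counting is not given. Kirrel2 starts 608 bases from the start of nephrin, Nphs1, which runs the other way, and ends 1855 bases from Aplp1, an amyloid precursor-like protein. No annotated gene overlaps Kirrel2. Within Kirrel3 lies the antisense transcript Kirrel3os, which shares 0 exon bases with it and had 4 to 9 counts per library. The lncRNA Gm64310, on the strand opposite to Kirrel1, shares 132 exon bases with it, 1.64% of the exon bases of Kirrel1, and was not among the counted genes. No tested neighbour passed the test between groups: Nphs1 had a log2 fold change of -0.032 (SE 0.26), Aplp1 of -0.014 (SE 0.047), St3gal4, a sialyltransferase gene after Kirrel3, of -0.080 (SE 0.14), Ets1, a transcription factor gene on its other side, of -0.16 (SE 0.11), and Cd1d1 and Fcrl2, immune genes beside Kirrel1, of -0.14 (SE 0.38) and 0.43 (SE 0.18), with adjusted p from 0.645 to 0.985 (edgeR). Without the library labelled hp708 replicate 1, Nphs1 stood at -0.66 (SE 0.28, unadjusted p = 0.0485, adjusted p = 0.405, edgeR), Aplp1 at 0.034, St3gal4 at -0.16, Ets1 at 0.045, Cd1d1 at 0.39 and Fcrl2 at 0.11, and again no adjusted p passed. Aplp1, Ets1 and Cd1d1 changed sign.

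Nephrin is both a neighbour of Kirrel2 and a binding partner of the family. It measured 1.46, 2.14, 1.80 and 1.95 CPM in hpCTL and 2.21, 1.04, 2.47 and 0.991 CPM in hp708. On log2 CPM across the 8 libraries, Nphs1 and Kirrel2 were correlated with r = 0.745 (exact permutation p = 0.0392, adjusted p = 0.157) and rho = 0.762 (exact permutation p = 0.0368, adjusted p = 0.147), adjusted over the 4 pairs computed, so neither passed the correction. The coefficient was 0.90 without the 2 libraries farthest from the median log2 CPM of Kirrel2, 0.16 within hpCTL and 0.96 within hp708, each of the latter over 4 libraries. Without the library labelled hp708 replicate 1 it was 0.726. The pair was chosen after the counts were seen. Among the members themselves, Kirrel2 and Kirrel3 had r = 0.499 (exact permutation p = 0.211, adjusted p = 0.423) and rho = 0.31 (exact permutation p = 0.462, adjusted p = 0.616), Kirrel1 and Kirrel2 r = -0.292 (exact permutation p = 0.498, adjusted p = 0.520) and rho = -0.167 (exact permutation p = 0.703, adjusted p = 0.703), and Kirrel1 and Kirrel3 r = -0.277 (exact permutation p = 0.520, adjusted p = 0.520) and rho = -0.381 (exact permutation p = 0.360, adjusted p = 0.616). Without the 2 libraries farthest from the median log2 CPM of the first gene named, r was 0.756, 0.509 and 0.397 in the same order, so the negative sign of both Kirrel1 pairs rested on hpCTL replicate 1 and hp708 replicate 3. Leaving out hp708 replicate 1 gave 0.458, -0.457 and -0.487.

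**Figure D4:**
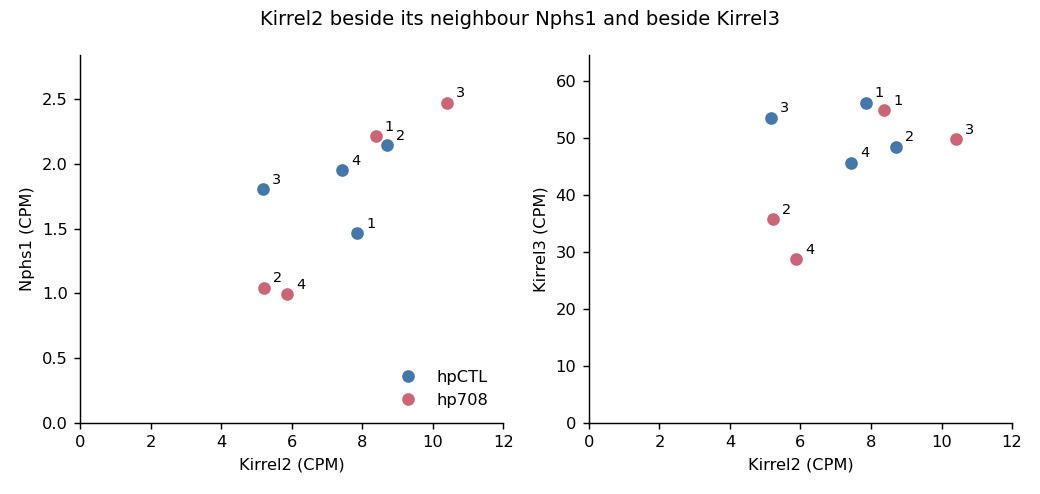
Nphs1 (left) and Kirrel3 (right) against Kirrel2, all in CPM on axes from 0; each point is 1 library with its replicate number, blue for hpCTL and red for hp708. In hp708, replicates 2 and 4 lie low and replicates 1 and 3 high for all 3 genes.

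The genes that followed each member most closely from library to library were ranked by Pearson's r of log2 CPM over the 8 libraries, after each group's mean was subtracted, among 15488 genes with a mean of at least 1 CPM. The coefficients are the highest of that many and are given with no test. Closest to Kirrel3 were Gprasp1, a sorting protein for G protein-coupled receptors (r = 0.987), Rab9b, a small GTPase (0.985), Camsap3, which binds microtubule minus ends (0.984), Armcx1 (0.981) and the integrin subunit Itgb3 (0.976). Gprasp1 measured 607, 578, 609 and 562 CPM in hpCTL and 610, 478, 605 and 424 CPM in hp708, low in the same libraries as Kirrel3. Closest to Kirrel1 were Hspg2, which encodes the basement membrane proteoglycan perlecan (0.996), Tns1, a focal adhesion protein (0.992), the cell cycle phosphatase Cdc25a (0.984), Slc22a23 (0.983) and the receptor Notch2 (0.975). Hspg2 measured 8.78, 17.3, 16.4 and 19.3 CPM in hpCTL and 24.4, 19.3, 12.8 and 18.7 CPM in hp708, again highest in hp708 replicate 1. Closest to Kirrel2 were Cox6a2, a subunit of cytochrome c oxidase (0.975), the transporter Abcd4 (0.973), Cacng3, an auxiliary subunit of AMPA receptors (0.969), the mitochondrial folate enzyme Mthfd1l (0.966) and Tcaim (0.956). No gene stood among the closest of more than 1 member. Without the library labelled hp708 replicate 1, coefficients of these genes over 7 libraries were 0.961 to 0.994 for Kirrel3, 0.978 to 0.996 for Kirrel1 and 0.970 to 0.988 for Kirrel2, but only 3, 1 and 1 of the 5 stayed among the closest 5.

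The partners that hold Kirrel proteins and nephrin at the membrane were taken as a list, of which 22 genes were tested: nephrin, PDZ scaffolds such as Tjp1, Cask, Pick1, Magi1, Magi2 and Dlg4, the Par polarity proteins, the adaptors Nck1, Nck2 and Grb2, the kinase Fyn, and proteins found bound to Kirrel3, among them Map1b, Myo16 and Atp1b1. Of these 0 passed an adjusted p below 0.05 (edgeR, lowest adjusted p = 0.643), 1 had an unadjusted p below 0.05, and 15 fitted values were above 0 and 7 below, with a median log2 fold change of 0.017 against -0.0091 over all tested genes, of which 7.7% had such an unadjusted p and 8076 lay above 0 and 9176 below. A count of 1 in 22 is no more than that share. The values farthest from 0 were those of Magi2, a scaffold of the slit diaphragm and of synapses (0.14, SE 0.064), Pard6a, of the Par complex (-0.12, SE 0.092), and Dlg4, the postsynaptic scaffold PSD-95 (0.12, SE 0.049, unadjusted p = 0.0439, adjusted p = 0.643). Without hp708 replicate 1 these were 0.17, -0.16 and 0.072, the median of the list was 0.038, and 5 of the 22 genes had an unadjusted p below 0.05, 3 above 0 and 2 below, against 12.2% of all tested genes.

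Adhesion proteins of the mossy fibre synapse, where Kirrel3 is known to act, formed a second list of 14 genes, all tested. Again 0 passed (lowest adjusted p = 0.594, edgeR), 1 had an unadjusted p below 0.05, 11 values were above 0 and 3 below, and the median was 0.041. Against the 7.7% of all tested genes with such a p, 1 of 14 is at the background. Nectin1 (0.20, SE 0.12) and Nectin3 (0.14, SE 0.050, unadjusted p = 0.0243, adjusted p = 0.594), which pair with each other at the mossy fibre terminal, and Gpc4, a heparan sulfate proteoglycan (0.13, SE 0.093), lay farthest from 0. Nectin3 measured 46.4, 41.3, 39.7 and 38.5 CPM in hpCTL and 42.6, 44.0, 48.6 and 45.6 CPM in hp708, with hpCTL replicate 1 inside the hp708 range. Without hp708 replicate 1, Nectin1 stood at 0.018, Nectin3 stood at 0.18 and Gpc4 at 0.11, the median of the list turned to -0.015, and 3 of the 14 genes had an unadjusted p below 0.05, 2 above 0 and 1 below, against the same 12.2%.

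A list of 23 other immunoglobulin adhesion molecules of neurons, all tested, set the family beside proteins of its own superfamily. Here too 0 passed (lowest adjusted p = 0.620, edgeR), 1 had an unadjusted p below 0.05, 16 values were above 0 and 7 below, and the median was 0.038, with 1 of 23 again no more than the 7.7% of all tested genes. Sdk1, a homophilic adhesion protein of synaptic layers (0.26, SE 0.16), Nfasc, neurofascin of the axon initial segment and node (0.16, SE 0.064, unadjusted p = 0.0361, adjusted p = 0.620), and Igsf21, a synaptic ligand of neurexin (-0.15, SE 0.15), lay farthest from 0. Without hp708 replicate 1 they stood at 0.37, 0.19 and -0.42, and the median of the list turned to -0.056, and it was also below 0 without hp708 replicate 3 (-0.018) and without hpCTL replicate 1 (-0.00058). Lacking hp708 replicate 1, the list had 4 genes above 0 and 6 below 0 with an unadjusted p below 0.05. The groups did not overlap for 0 of the 59 list genes, where 1.51% of all tested genes showed this, so the lists were not set apart by it. Without the library labelled hp708 replicate 1, 0 of the 59 list genes passed, and 18 had an unadjusted p below 0.05, 9 above 0 and 9 below, where 12.2% of all tested genes had such a p. The lowest adjusted p was then that of Cadm1, a synaptic cell adhesion molecule (-0.41, adjusted p = 0.0677). In the model free of surrogate variables, still lacking hp708 replicate 1, it was 3 of the 59 against 3.42% of all tested genes.

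**Figure D5:**
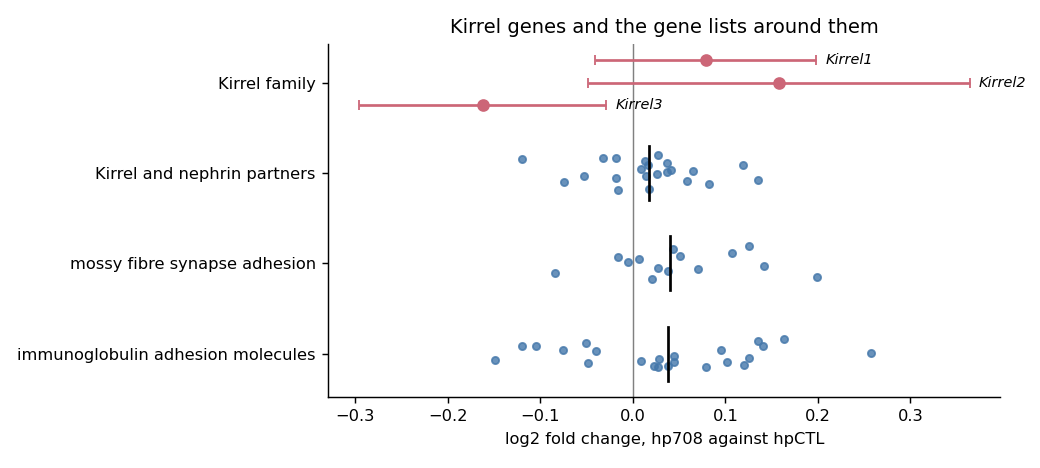
Log2 fold change (x axis, hp708 against hpCTL) of the Kirrel genes (red, bars are standard errors) and of each tested gene of the 3 lists (blue points, black line at the median; vertical scatter within a list has no meaning). List genes lie between -0.15 and 0.26, with medians of 0.017, 0.041 and 0.038 from top to bottom.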

How the data were processed

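The authors deposited raw gene counts of 8 polyA libraries, made with STAR 2.7.8a on GRCm39 with GENCODE M26 and featureCounts 1.6.4; strand and multi-mapping settings are not given in the sources used here. Each library is 1 animal. Gene names, positions, exon lengths and 3′UTRs came from a later GENCODE annotation of GRCm39 (39641 of 40659 IDs matched). Counts were filtered with filterByExpr, scaled by TMM and fitted with edgeR 4.0.16 (quasi-likelihood test, R 4.3.3) with 3 surrogate variables from sva 3.50.0, all genes together, with Benjamini-Hochberg adjustment. SE is the fold change over the root of F. Log2 CPM used a prior count of 2. Steps were tested on simulated data. Named genes are the 3 members, the 3 genes farthest from 0 in each list plus any with adjusted p below 0.05, the 5 closest genes by correlation, and overlapping or nearest genes; Gprasp1 and Hspg2 stand for their sets in per-library values, as the closest, and Cadm1 was named after its values were seen. The members and lists were chosen with earlier results of these data known. Alternatives: no surrogate variables, likelihood ratio test, DESeq2 1.42.0, its size factors, no filter, replicate block (without surrogate variables), and each library left out. The study's figure legend names a quasi-likelihood model and its methods a likelihood ratio test. A withheld item is not reported here.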

Additional observations from a re-analysis of the deposited data

How the results depend on the processing

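The number of genes with adjusted p below 0.05 was 1 by the quasi-likelihood test with 3 surrogate variables, 0 without surrogate variables, 127 by the likelihood ratio test, 96 by DESeq2, 12 without the filter, 1 with DESeq2 size factors and 0 without both surrogate variables and hp708 replicate 1. With 1 library dropped the count lay between 0, when hpCTL replicate 3 was dropped, and 56, when hp708 replicate 1 was dropped. At an unadjusted p below 0.05 it was 1328, and 312 without surrogate variables. Kirrel1 stayed short of the threshold under all 15 alternatives (adjusted p 0.704 to 1.00) and kept its sign under 14, its log2 fold change running from -0.059 (without hp708 replicate 1) to 0.16 with a library left out. Kirrel2 also stayed short of it under all 15 (adjusted p 0.788 to 1.00) and kept its sign under 11, running from -0.20 (without hp708 replicate 1) to 0.29 (without hpCTL replicate 2), with -0.021 without hpCTL replicate 3, -0.064 without hp708 replicate 3, and -0.023 without surrogate variables and hp708 replicate 1. Kirrel3 was below 0 under all 15, from -0.51 (without hp708 replicate 1) to -0.0063 (without hp708 replicate 4), at -0.27 without surrogate variables and -0.42 without both. The cause was not tested. No list gene passed under any of the 15, and 0 to 18 had an unadjusted p below 0.05. Over all tested genes that count ran from 272 to 2119. The 18 came without hp708 replicate 1, where 12.2% of all tested genes had such a p. Without hp708 replicate 2 it was 11 list genes, and 2097 of 17463 tested genes. Same-numbered replicates shared only a number (correlations of deviations -0.041 to 0.018). The replicate block, fitted without surrogate variables, gave 1 gene called, 0.13 for Kirrel1, 0.0033 for Kirrel2 and -0.31 for Kirrel3. Neither Kirrel1, Kirrel2 nor a list gene passed in it, and 0 list genes and 272 of all genes had an unadjusted p below 0.05. The gene called with the block was not the one called by the quasi-likelihood test with 3 surrogate variables. Leaving out hp708 replicate 1 from the marker lists, closest genes and correlations was chosen after seeing the data. At 120 to 250 counts a library, counting alone gives Kirrel1 and Kirrel2 a coefficient of variation of 7.47% and 7.35%.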
